A study of Rattus norvegicus with 15 samples.

Results

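Desert hedgehog (Dhh) and 5 further genes of the hedgehog pathway, Ptch1, Smo, Gli1, Gli2 and Sufu, were examined in cultured rat spermatogonial stem cells. The cells were deprived of GDNF, the glial cell line-derived neurotrophic factor, and then given it back. The members were chosen by name, as every probe set whose only gene symbol in the array annotation is one of the 6, and the set was built around Dhh because its measured signal was low without GDNF and still low 8 h after its return. Of 31099 probe sets on the array, 6 belonged to 5 of the 6 genes: 2 to Smo and 1 each to Dhh, Gli1, Gli2 and Sufu. No probe set had Ptch1 as its only symbol, so Ptch1 expression was not analysed here.

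The arrays cover 5 groups of 3 independent cultures each, 15 in all. In the withdrawal group GDNF was removed for 18 h. In the return groups the same 18 h without GDNF were followed by 2, 4 or 8 h with it, and the control cultures kept GDNF throughout. All cultures had been expanded for 1 month in serum-free medium with GDNF before treatment, and the labels name no strain, age, genotype or feeder cell, so nothing here separates the stem cells from any cells grown with them. In such bulk RNA fewer cells of a type and less RNA per cell cannot be told apart.

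Hedgehog ligands are secreted lipid-modified proteins that bind Patched receptors, which hold the membrane protein Smoothened (Smo) inactive until ligand arrives. Active Smo gathers in the primary cilium and releases the GLI transcription factors from their inhibitor Sufu, and the transcripts of Gli1 and Ptch1 are standard readouts of the pathway. In the testis Dhh is known as the ligand made by Sertoli cells, acting on Leydig and peritubular cells, and it is also the ligand of Schwann cells in peripheral nerve. GDNF, made by Sertoli cells, signals through the receptor Ret and its co-receptor Gfra1 and is required for the self-renewal of spermatogonial stem cells in culture.

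Values are one-colour array intensities on a linear scale, and differences between groups were tested on their log2 values. An intensity of 16 was taken as the level below which a signal was read only as low. Between 50.2% and 50.5% of probe sets reached it on each array, and the 15856 probe sets that reached it on at least 3 arrays were tested. A difference is described as called where limma, fitted over all 15 arrays, gave a Benjamini-Hochberg adjusted p under 0.05 over these 15856. The number of arrays, 3 in a group, limits the precision of every value.

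The cells carried transcripts of undifferentiated spermatogonia: over all groups Ret, the GDNF receptor, had mean intensities of 1932 to 4301, and Sall4, a zinc-finger factor of stem cells, averaged 644.2 ± 77 after withdrawal and 489.8 ± 52.4 in the control (SD, n = 3). The probe sets of Gfra1 and Nanos3 stayed under 16 on all 15 arrays, and that of Lin28a reached it on 1. Of the 18 markers listed for these cells, 6 had no probe set of their own symbol (Zbtb16, Nanos2, Pou5f1, Ddx4, Dazl and Utf1). Among the marker genes of undifferentiated cells tested, Bcl6b averaged 163.9 ± 26.4 after withdrawal and 1588 ± 52.4 in the control (limma adjusted p = 2.36e-11), and the adhesion gene Epcam 7587 ± 403 after withdrawal and 10990 ± 407 in the control (adjusted p = 5.41e-07). Cdh1 rose by 0.47 and Foxo1 by 0.39 on the log2 scale after withdrawal (adjusted p = 0.00034 and 0.00366), and over the 9 markers of undifferentiated cells tested 3 rose and 5 fell, where 11.4% of all tested probe sets were called higher and 9.67% lower. Kit, a marker of differentiating spermatogonia, rose by 0.78 (adjusted p = 0.000279) and was the 1 gene called of 4 tested markers of differentiating and meiotic germ cells, whose median was -0.01. Of the others, Sohlh1 averaged 1423 ± 52.4 after withdrawal and 1490 ± 86.8 in the control, and Sycp1, of the meiotic chromosome axis, 224.9 ± 25.9 after withdrawal and 264.8 ± 19.1 in the control (adjusted p = 0.431 and 0.0566). The remaining tested marker, Sycp3, read high in both groups, from 11840 to 13290 after withdrawal and from 11900 to 12640 in the control, and was not called. The first component of variation within groups held 25.2% of that variance, and replicate 1 of the withdrawal, 4 h return and control groups lay lowest on it (-0.487, -0.394 and -0.323). At its other end control replicate 2 (0.435) and withdrawal replicate 3 (0.405) lay about as far from 0. Results that change without the 3 lowest arrays together are given below without them as well, an alternative chosen after seeing the data, and every array was also left out singly.

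Promoter sequences were taken from RefSeq (build GRCr8), as the 250 bases before the start that its promoter table gives each gene, and were found for 5 of the 6 members. For Dhh, Smo and Gli2 that start is the start of the annotated gene. For Ptch1 it lies inside the gene (chr17:1548449-1613461), and the Sufu window also reaches into its gene, which begins at position 255199108, so these windows stand for a start within the gene. That of Dhh, the member chosen on its response, lies on chr7:131935353-131935602, minus strand. That of Gli2, the member with the smallest adjusted p between 2 and 4 h of return, lies on chr13:32716419-32716668, minus strand. A 39-base window of the Ptch1 promoter (chr17:1555384-1555422, plus strand) is added as the member promoter that held a GLI motif. Capitals mark matches to 3 motifs searched on both strands: GACCACCCA, the core motif bound by GLI factors; GCGGGGGCG, bound by EGR factors, which are known early targets of growth factors; and GGGCGG, the GC box of Sp1-type factors.
Dhh promoter: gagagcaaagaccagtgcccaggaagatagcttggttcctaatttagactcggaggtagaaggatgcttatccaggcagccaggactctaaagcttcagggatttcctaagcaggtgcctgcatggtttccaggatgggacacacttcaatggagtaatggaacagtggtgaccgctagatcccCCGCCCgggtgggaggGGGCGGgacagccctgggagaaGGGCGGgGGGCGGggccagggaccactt
Gli2 promoter: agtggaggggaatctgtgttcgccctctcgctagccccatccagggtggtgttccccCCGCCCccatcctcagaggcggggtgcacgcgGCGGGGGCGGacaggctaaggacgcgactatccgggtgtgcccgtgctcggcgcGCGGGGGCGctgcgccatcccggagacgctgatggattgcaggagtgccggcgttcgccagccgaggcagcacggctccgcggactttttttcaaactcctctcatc
Ptch1 promoter window: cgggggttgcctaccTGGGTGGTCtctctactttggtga
The Dhh window held 4 GC boxes in its last 66 bases before the start and no GLI or EGR match. The Gli2 window held 2 EGR matches, 161 to 153 and 107 to 99 bases before the start, and 2 GC boxes, of which 1 overlaps the first EGR match. Ptch1 held a GLI match on its minus strand, 172 to 164 bases before the table's start, and 1 GC box outside the window shown. The windows of Smo and Sufu held none of these motifs, and CCGGAAGT, bound by ETS factors, and GTAAACA, bound by FOXO factors, were in no member window. Of 33465 rat promoters of the same length, 0.338% held the GLI motif, 2.45% the EGR motif, 30.5% a GC box, 3.1% the ETS motif and 3.22% the FOXO motif. The base composition of the Dhh and Gli2 windows was 58.4% and 68.4% G or C, above the 51.2% median of all promoters. These matches describe the letters only.

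Dhh was present at a modest level in the cultures that kept GDNF throughout and was at the low level in every withdrawal culture. Its probe set, 1384864_at, read 15.67, 15.56 and 15.49 after withdrawal. After 2 h of return it read 15.77, 15.27 and 15.7, and after 4 h 15.76, 15.98 and 15.81. None of these 9 arrays reached 16. After 8 h it read 18.61, 15.73 and 15.996, and the control arrays read 62.78, 66.93 and 63.26. The 3 control arrays stood alone, and among the other 12 only 1 culture at 8 h rose above the low level.

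**Figure D1:**
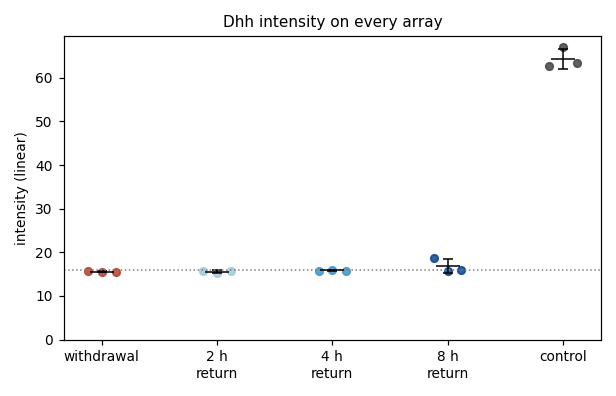
Dhh intensity (linear axis from 0) on each of the 15 arrays by group; points are arrays, horizontal ticks the group means and bars the SD (n = 3), and the dotted line marks the intensity of 16. The control arrays lie between 62.78 and 66.93, while 11 of the other 12 lie under 16 and 1 culture at 8 h reads 18.61.

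In order of level the groups were 15.57 ± 0.0954 after withdrawal, 15.58 ± 0.275 at 2 h, 15.85 ± 0.112 at 4 h, 16.78 ± 1.59 at 8 h and 64.32 ± 2.27 in the control (SD, n = 3). No neighbouring pair among the 4 lower groups differed by more than the larger of their SDs of intensity. At 4 h against 2 h, the one comparison that did not enter the choice of Dhh, all 6 arrays were under 16, so no test is given there either. Withdrawal was 4.13-fold below the control, which is at least 4.02-fold with the low values set at 16, and 8 h of return was 3.84-fold below it (3.82-fold in the same way). These differences are descriptions without a test, since they chose the gene, and Dhh entered the tested set only through the 3 control arrays and 1 array at 8 h, so it had to differ. Of all tested probe sets 9.67% were called lower after withdrawal than in the control, and 7.49% lower at 8 h than in the control. The low readings were close together: the SD of Dhh over the withdrawal arrays was 0.00884 on the log2 scale, against a median of 0.121 over 451 probe sets with a withdrawal mean between 3.8 and 4.2, and 4.88% of those were as steady. On 32.8% of all probe sets some arrays shared exactly the same value.

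Of the 5 Sertoli cell markers other than Dhh that could be tested, 0 were called lower after withdrawal than in the control, and 1 was called higher, where 9.67% of all tested probe sets were called lower and 11.4% higher. In all, of 11 Sertoli cell markers, 9 had a probe set and 4 of these (Amh, Gata4, Inhbb and Aard) stayed under 16 on all arrays. The summed intensity of the 9 ran from 3816 to 4100 after withdrawal, from 3706 to 3818 at 2 h, from 3485 to 3709 at 4 h, from 3943 to 4069 at 8 h and from 3409 to 3606 in the control, so the withdrawal sums lay above those of the control. Most of that sum was clusterin (Clu), which many cells make and which averaged 3470 ± 130 after withdrawal and 3051 ± 70.8 in the control (limma adjusted p = 0.00264). Wt1, a Sertoli cell factor, read between 15.15 and 17.56 after withdrawal and between 17.71 and 22.52 in the control, and was not called. Of 4 Schwann cell markers with a probe set, Sox10 and S100b stayed under 16 throughout, and the sum of the 4 ran from 125.2 to 328.9 after withdrawal and from 222.7 to 404.9 in the control. Most of that sum was Pmp22, the only 1 tested, and Mbp reached 16 on 2 arrays. Pmp22 read from 104.6 to 307.9 after withdrawal and from 197.3 to 380.4 in the control, and was not called.

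Among the remaining cell markers, 11 of 12 Leydig and peritubular genes stayed under 16 on all arrays, Acta2 being the exception. Mesenchymal markers were plainly present, with summed intensities from 3954 to 6494 after withdrawal and from 5444 to 7119 in the control; of 12 tested, 2 (16.7%, against 9.67% of all tested probe sets) fell after withdrawal and 0 rose. These were Twist1 and Fbn1 (lower by 0.60 and 0.47 on the log2 scale, limma adjusted p = 0.00492 and 0.00396), and Twist1 was not called without the 3 arrays lowest on the first component (adjusted p = 0.0855). The endothelial receptor gene Kdr was above 16 only in the control: it read 6.9, 8.355 and 7.725 after withdrawal, 12.3, 10.98 and 11.34 at 8 h and 24.01, 20.26 and 20.98 in the control. It passed the filter only through the control arrays, so its difference is a description without a test: -1.51 on the log2 scale for withdrawal against control, and -0.44 with values under 16 set at 16. The other endothelial gene tested, the adhesion gene Pecam1, was above 16 on all arrays and averaged 48.26 ± 3.27 after withdrawal and 42.39 ± 8.1 in the control (SD, n = 3; limma adjusted p = 0.258, not called). Tek and Tie1 stayed under 16. The part of these cells in the Dhh values was not tested.

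The genes lying next to Dhh in the rat genome were read as values, a choice made after seeing the data. Prkag1, Kmt2d and Rhebl1 on one side were not called between withdrawal and control (limma adjusted p = 0.229, 0.258 and 0.269). On the other side the nearest gene, Lmbr1l, averaged 169.3 ± 73.5 after withdrawal and 290.0 ± 65.3 in the control (log2 difference -0.87 ± 0.26 SE, adjusted p = 0.0288). That call was lost in 6 of 16 alternatives, among them without control replicate 1, control replicate 3 or withdrawal replicate 1, with an adjusted p of up to 0.151. Tuba1b and Tuba1a, the next genes, had no probe set of their own symbol.

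The 10 genes whose log2 intensities followed Dhh most closely over the 15 arrays were Tstd3 (Pearson r = 0.971), Gngt2 (0.967), Nipsnap3b (0.963), Inka2 (0.96), Arc (0.96), Gyg1 (0.954), Gtf2h4 (0.951), Wwp2 (0.947), Rgs10 (0.947) and Lpcat4 (0.942), out of 8958 genes compared, 32 of which exceeded 0.9. The r is a description, and since Dhh had 1 high group it mostly ranks genes by how evenly the control stood above the rest. All 10 kept more of their control signal than Dhh. Tstd3 averaged 82.14 ± 1.22 after withdrawal, 87.3 ± 2.77 at 8 h and 130.0 ± 7.9 in the control (SD, n = 3). Arc, known as an immediate early gene of neurons, averaged 45.86 ± 0.526, 45.76 ± 0.697 and 80.33 ± 7.53 in the same groups. Inka2, an inhibitor of the kinase PAK4, came nearest to Dhh in depth, at 19.86 ± 2.02, 24.33 ± 4.73 and 66.38 ± 13.3, and Gtf2h4, a subunit of the transcription factor TFIIH, had risen part of the way at 8 h (1024 ± 24.9, 1303 ± 28.1 and 2203 ± 85.1).

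**Figure D2:**
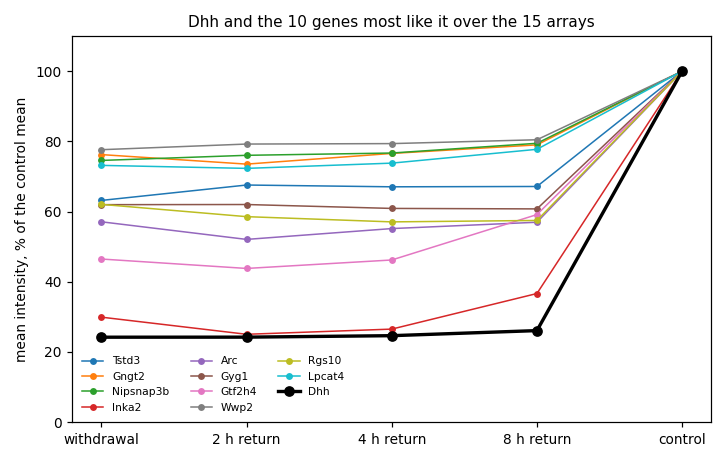
Mean intensity of Dhh (black) and of the 10 genes with the highest Pearson r to it over the 15 arrays, each as a percent of its own control mean (linear axis from 0, n = 3 arrays a point), for the withdrawal, return and control groups. Every line is at its highest in the control, which the choice of these genes fixed; Dhh and Inka2 lie lowest.

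No other hedgehog ligand was read above the low level on 3 arrays. The probe sets of Shh and Ihh, the other hedgehog ligands, and of Disp1 and Scube1, which release them, were all under the filter, and Hhat, Scube2 and Scube3 had no probe set of their own. Of the receptors and co-receptors, Hhip, Cdon and Gas1 were under the filter, Ptch1 had no probe set, and Boc, a co-receptor that helps ligand bind Patched, was the only one tested. Boc read 59.88, 72.73 and 86.82 after withdrawal, 49.33, 42.1 and 58.5 at 2 h, 60.85, 74.83 and 71.86 at 4 h, 104.6, 109.4 and 115.9 at 8 h, and 76.24, 78.69 and 90.94 in the control. The 8 h arrays stood above all others and the 2 h arrays below all others.

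Boc was 1.52-fold higher at 8 h than after withdrawal (log2 difference 0.60 ± 0.14 SE, limma adjusted p = 0.0061), a call kept in all 16 alternatives, and 9.62% of tested probe sets were called higher in that comparison. At 2 h it was 1.46-fold lower than after withdrawal (adjusted p = 0.0113, among 14.2% called lower), and at 4 h it was higher than at 2 h (by 0.48 on the log2 scale, adjusted p = 0.0368, among 7.56% called higher). The 2 h call was lost without 2 h replicate 2 or withdrawal replicate 3 (adjusted p up to 0.0575), and the 4 h against 2 h call without 2 h replicate 1 or 2 or 4 h replicate 2 or 3 (up to 0.156). The summed intensity of the mesenchymal markers ran from 3954 to 6494 after withdrawal, from 3666 to 4115 at 2 h and from 4028 to 5383 at 4 h. At 8 h it ran from 5847 to 7033 and in the control from 5444 to 7119. The withdrawal sums overlapped those at 2 h and at 8 h. Relative to withdrawal, 1 of the 12 tested rose and 5 fell at 2 h, and 2 rose and 0 fell at 8 h. Over all tested probe sets 11.9% rose and 14.2% fell at 2 h, and 9.62% and 15.4% at 8 h. The part of these markers in the Boc values was not tested.

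Smo, the signal transducer of the pathway, was read by 2 probe sets that differed. Probe set 1389475_at read 146.3, 143.3 and 129.9 after withdrawal, 113.9, 101.3 and 124.3 at 2 h, 109.9, 108.9 and 102.7 at 4 h, 114.5, 122.0 and 88.72 at 8 h, and 121.4, 110.2 and 111.8 in the control. The 3 withdrawal arrays were above all 12 others. Probe set 1370143_at read 56.01, 55.96 and 72.85 after withdrawal, 55.23, 60.89 and 53.73 at 2 h, 55.95, 55.61 and 55.96 at 4 h, 63.05, 55.96 and 57.71 at 8 h, and 55.96, 54.56 and 55.77 in the control, with the value 55.96 on 4 arrays. Its groups overlapped in all 6 comparisons, and withdrawal replicate 3 was the highest array.

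On probe set 1389475_at Smo fell 1.30-fold by 4 h and by 8 h of return relative to withdrawal (log2 difference -0.38 ± 0.11 SE for each, limma adjusted p = 0.0173 and 0.0217), where 16% and 15.4% of all tested probe sets were called lower. The difference was -0.31 at 2 h (adjusted p = 0.0539) and 0.29 for withdrawal against control (adjusted p = 0.0812), neither called, although the groups did not overlap. Probe set 1370143_at was called in none of the 6 comparisons, with adjusted p from 0.369 to 0.942. Over the 5 groups the F test called 1389475_at (adjusted p = 0.0447) and not 1370143_at (0.666), against 49.6% of tested probe sets called by that test. Both return calls rest on single arrays: that at 4 h was lost without 4 h replicate 3, withdrawal replicate 1 or withdrawal replicate 2 (adjusted p of 0.0563, 0.0543 and 0.0547), and that at 8 h without 8 h replicate 3, withdrawal replicate 1 or withdrawal replicate 2 (0.107, 0.0723 and 0.0661). Without the 3 arrays lowest on the first component neither was called (0.0846 and 0.0874).

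Grk2, Arrb1 and Arrb2, a kinase and 2 arrestins known to act on active Smo, were tested as well and were not called in any comparison. Of the 4 genes tested on this list 1, Smo itself, was called lower at 4 h and at 8 h, and 0 in the other 4 comparisons, with list medians between -0.06 and 0.02 on the log2 scale. Gpr161 and Evc were under the filter. The comparisons of 2, 4 and 8 h of return with withdrawal, and of withdrawal with control, share the 3 withdrawal arrays. A rise after withdrawal and a fall on return, in any gene here, are therefore not separate evidence.

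**Figure D3:**
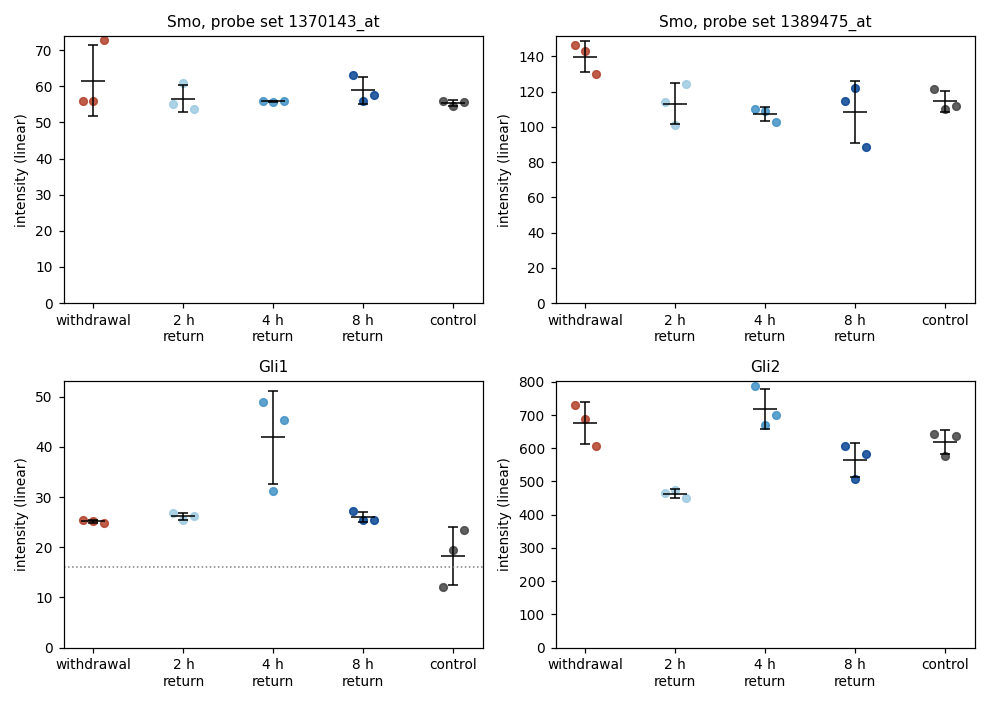
Intensity (linear axes from 0) on each array by group for the 2 probe sets of Smo and for Gli1 and Gli2; points are arrays, ticks the means and bars the SD (n = 3), and the dotted line in the Gli1 panel marks 16. Gli1 is highest at 4 h (31.32 to 49.03), Gli2 is lowest at 2 h (450.5 to 475.3), and 1 of the Smo probe sets is highest after withdrawal.

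Gli1, the GLI factor whose transcript is itself a classical pathway target, was low and rose at 4 h of return. It read 25.43, 25.17 and 24.95 after withdrawal, 26.85, 25.48 and 26.3 at 2 h, 49.03, 31.32 and 45.35 at 4 h, 27.28, 25.5 and 25.35 at 8 h, and 11.995, 19.42 and 23.47 in the control. The 3 arrays at 4 h were above all others and the 3 control arrays below all others, 1 of them under 16. Gli1 was 1.63-fold higher at 4 h than after withdrawal (0.71 ± 0.20 SE on the log2 scale, limma adjusted p = 0.0133), where 14.6% of probe sets were called higher, and 1.57-fold higher than at 2 h (0.65, adjusted p = 0.0394). In the same comparisons Dhh stayed under 16. Some markers of other cells also had their highest mean at 4 h. Wt1 averaged 16.35 ± 1.2 after withdrawal, 19.16 ± 1.51 at 2 h, 35.51 ± 7.85 at 4 h, 23.3 ± 2.88 at 8 h and 20.58 ± 2.54 in the control (SD, n = 3; 4 h against withdrawal, limma adjusted p = 7.45e-05). Twist1 averaged 70.18 ± 16.4, 104.5 ± 7.93, 147.4 ± 6.88, 119.2 ± 13.5 and 105.1 ± 8.45 in the same groups (adjusted p = 2.38e-05). Over the whole lists, 1 of 5 Sertoli and 1 of 12 mesenchymal markers rose at 4 h relative to withdrawal and 1 of each fell. Of all tested probe sets 14.6% rose and 16% fell in that comparison. Neither summed intensity of these markers was highest at 4 h. Their part in the Gli1 values was not tested.

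After withdrawal Gli1 was 0.52 above the control and at 8 h 0.56 above it on the log2 scale, neither called (adjusted p = 0.0774 and 0.077), against 11.4% and 4.83% of probe sets called higher. Control replicates decide this: without control replicate 1, at 11.995, the withdrawal difference was 0.24 (adjusted p = 0.322), and without control replicate 3 it was 0.72 (0.0187); at 8 h the corresponding values were 0.29 (0.286) and 0.77 (0.0228). Between 4 h and withdrawal the call was lost without 4 h replicate 1 (0.58, adjusted p = 0.0593) and kept without the 3 arrays lowest on the first component (0.59, 0.0171). Between 4 h and 2 h it was lost when any single array other than 4 h replicate 2 was left out, with adjusted p of up to 0.147. The F test over the 5 groups gave an adjusted p of 0.00226.

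Gli2, the main activator among the GLI factors, was the member with the smallest adjusted p. It read 730.5, 688.6 and 606.5 after withdrawal, 465.0, 475.3 and 450.5 at 2 h, 786.5, 668.5 and 698.6 at 4 h, 606.5, 508.8 and 581.8 at 8 h, and 641.4, 576.6 and 637.4 in the control. The 2 h arrays were below every other array, and the 4 h arrays overlapped only with withdrawal. Gli2 fell 1.45-fold at 2 h relative to withdrawal (log2 difference -0.54 ± 0.08 SE, limma adjusted p = 0.000311) and was 1.55-fold higher at 4 h than at 2 h (0.63 ± 0.08 SE, adjusted p = 0.000139). Both calls were kept in all alternatives, with differences from -0.61 to -0.48 and from 0.56 to 0.68 when single arrays were left out.

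At 8 h Gli2 was 0.25 lower than after withdrawal on the log2 scale (adjusted p = 0.0342), but the groups overlapped and the call was lost when 8 h replicate 2 or 3, or replicate 1 or 2 of the withdrawal group, was left out (adjusted p of 0.158, 0.0555, 0.138 and 0.0969). Withdrawal and control did not differ beyond their spread (675.2 ± 63.1 against 618.5 ± 36.3, log2 difference 0.12, 95% interval -0.05 to 0.30, adjusted p = 0.321). The F test gave an adjusted p of 0.000178. The summed mesenchymal markers were also lowest at 2 h, as given above, and their part in the Gli2 values was not tested.

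**Figure D4:**
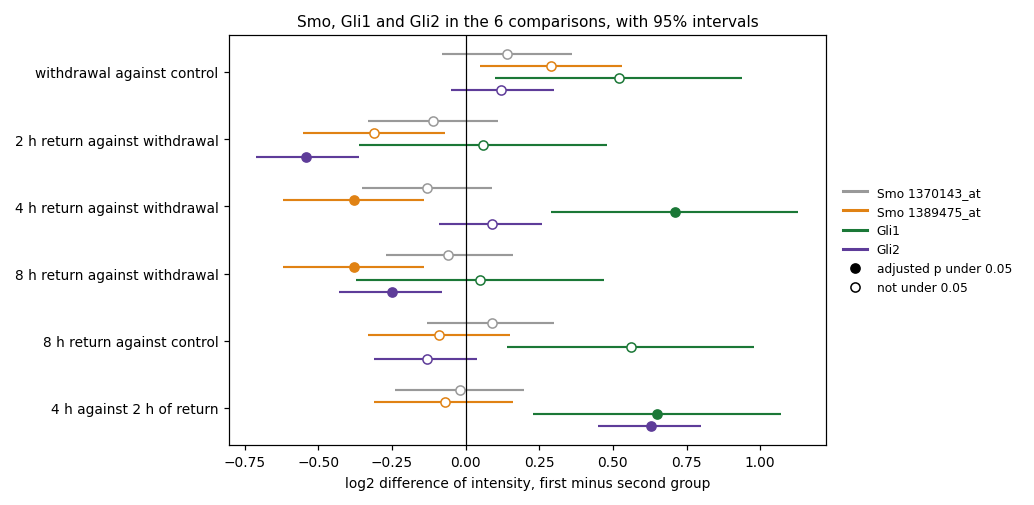
Log2 difference of intensity, first group minus second, with the 95% interval of the limma fit, for both Smo probe sets, Gli1 and Gli2 in the 6 comparisons; filled points have an adjusted p under 0.05. Gli2 is below 0 at 2 h of return (-0.54), and Gli1 and Gli2 are both above 0 at 4 h against 2 h (0.65 and 0.63).

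Sufu, the inhibitor that binds GLI factors, read between 4.43 and 7.335 on all 15 arrays and was not tested. Its group means ran from 5.566 ± 0.0539 at 8 h to 5.88 ± 1.45 in the control, and no group differed from another by more than the control SD. Against the intensity of 16, Smo and Gli2 were above it on all 15 arrays, Gli1 on 14, Dhh on 4 and Sufu on 0; levels of different probe sets are not comparable with each other.

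Among the further genes acting on GLI, Kif7, a kinesin that organises GLI and Sufu at the cilium tip, rose after withdrawal and was lower again with GDNF. It read 382.5, 318.0 and 324.5 after withdrawal, 320.6, 312.0 and 300.4 at 2 h, 275.1, 250.9 and 266.1 at 4 h, 259.9, 264.9 and 286.8 at 8 h and 243.1, 283.3 and 261.5 in the control. The withdrawal arrays lay above all 4 h, 8 h and control arrays. The rise after withdrawal was 1.30-fold (0.38 ± 0.08 SE, limma adjusted p = 0.00342; 0.056 without the 3 arrays lowest on the first component), and the differences at 4 and 8 h from withdrawal were -0.37 and -0.33 (adjusted p = 0.0027 and 0.00659). Of the 7 genes tested on the GLI list, 3 were higher at 4 h than at 2 h (Gli1, Gli2 and, by 0.12, the ubiquitin ligase scaffold Cul3), and 0 lower; the Cul3 call (adjusted p = 0.0357) was lost in 9 of 16 alternatives, among them without 2 h replicate 2 or 3 or 4 h replicate 1 or 3 (up to 0.15). In that comparison 7.56% of probe sets were called higher and 6.14% lower. Without the 3 arrays lowest on the first component, 2 of the 7 were higher and 1 lower (1009 and 805 of all 15856). The other 2 Cul3 probe sets differed from the brightest one: their log2 differences at 4 h against 2 h were -0.03 and -0.67, not called (adjusted p = 0.799 and 0.184), and 0.42 and 0.92 higher at 2 h than after withdrawal, both called (0.000613 and 0.0457). After withdrawal 1 of the 7 genes rose and 0 fell, at 2 h 0 rose and 1 fell, at 4 h 1 rose and 1 fell, at 8 h 0 rose and 2 fell, and at 8 h against the control 0 were called, with list medians from -0.13 to 0.12. Over all tested probe sets the shares called higher and lower were 11.4% and 9.67% after withdrawal, 11.9% and 14.2% at 2 h, 14.6% and 16% at 4 h, 9.62% and 15.4% at 8 h, and 4.83% and 7.49% at 8 h against the control. Counting all 12 probe sets of the list gave 2 higher and 2 lower at 2 h. Without the 3 arrays lowest on the first component, 0 of the 7 genes were called after withdrawal (1173 higher and 1243 lower of all 15856). At 8 h of return 0 then rose and 1 fell (1419 and 1892 of all).

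The kinases and ubiquitin ligases known to phosphorylate GLI factors and mark them for processing gave 11 tested genes. Prkar1a, the regulatory subunit that restrains protein kinase A, averaged 5610 ± 73.4 after withdrawal, 6537 ± 297 at 2 h, 6984 ± 90.3 at 4 h, 6578 ± 125 at 8 h and 6417 ± 72.3 in the control (SD, n = 3). It fell by 0.19 on the log2 scale after withdrawal (limma adjusted p = 0.000727) and rose by 0.22, 0.32 and 0.23 at 2, 4 and 8 h (adjusted p = 0.000272, 4.75e-06 and 0.000148), calls kept in all 16 alternatives each. Numb, an adaptor that targets Gli1 for degradation, was higher at 4 h than after withdrawal (0.20, adjusted p = 0.00161) and than at 2 h (0.19, 0.00539), and Btrc, the ligase subunit that recognises phosphorylated GLI, was lower at 8 h than after withdrawal (-0.37, 0.00618). Over the list 0 genes rose and 2 fell after withdrawal, 1 rose and 2 fell at 2 h, 3 rose and 1 fell at 4 h, and 1 rose and 1 fell at 8 h. At 8 h against the control 0 were higher and 1 lower, and at 4 h against 2 h 1 was higher and 0 lower. Over all tested probe sets 11.4% rose and 9.67% fell after withdrawal, 11.9% and 14.2% at 2 h, 14.6% and 16% at 4 h, and 9.62% and 15.4% at 8 h; 4.83% were higher and 7.49% lower at 8 h than in the control, and 7.56% and 6.14% at 4 h than at 2 h. The list reached 27.3% higher at 4 h (3 of 11 genes) and 18.2% lower after withdrawal and at 2 h (2 of 11). Csnk1a1, called lower after withdrawal and higher at 4 h, lost these calls in 11 and 10 of 16 alternatives. Csnk1d and Cul1, called lower at 2 h, lost theirs in 9 and 10. Without the 3 arrays lowest on the first component, 0 of the 11 rose and 1 fell after withdrawal (1173 and 1243 of all 15856). At 2 h 1 rose and 0 fell (1906 and 2089 of all), and at 4 h 2 and 0 (1988 and 2042). At 8 h against the control 0 were called (647 and 973). In the main fit the list medians lay between -0.03 and 0.07.

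Genes known as hedgehog targets in other tissues moved in both directions. Ccnd2, cyclin D2, read 331.9, 467.1 and 419.6 after withdrawal, 497.3, 469.2 and 480.9 at 2 h, 816.0, 1015 and 998.2 at 4 h, 886.9, 818.7 and 894.1 at 8 h and 707.4, 809.5 and 852.6 in the control. Its 3 withdrawal arrays were below all others and its 2 h arrays below all at 4 h, 8 h and in the control. Ccnd2 fell by 0.97 on the log2 scale after withdrawal (limma adjusted p = 1.96e-05) and rose by 1.22 at 4 h and 1.11 at 8 h (adjusted p = 1.04e-06 and 4.39e-06). The Notch ligand gene Jag2 and Snai1, a repressor of epithelial genes, did the reverse after withdrawal and at 4 h. They rose by 0.57 and 0.76 after withdrawal (adjusted p = 0.000139 and 0.00255) and fell by 0.32 and 0.69 at 4 h (0.00815 and 0.0032). Snai1 was near 16 in the control (15.44, 17.83 and 18.03) and at 4 h (16.13, 17.79 and 19.9). It read 25.78, 31.21 and 29.95 after withdrawal and 26.86, 17.62 and 25.28 at 8 h. Foxf1, a forkhead factor, rose by 0.60 at 4 h (adjusted p = 0.00282), and Foxm1 was 0.59 lower at 8 h than in the control (0.000451). These calls were kept in every alternative run.

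Of the 10 tested targets, 2 rose and 2 fell after withdrawal, 1 rose and 3 fell at 2 h, 3 rose and 2 fell at 4 h, and 1 rose and 2 fell at 8 h. At 8 h against the control 1 was higher and 1 lower, and at 4 h against 2 h 4 were higher and 1 lower. As shares of the 10, 20% rose and 20% fell after withdrawal, against 11.4% and 9.67% of all tested probe sets; 10% and 30% at 2 h, against 11.9% and 14.2%; and 30% and 20% at 4 h, against 14.6% and 16%. At 8 h 10% rose and 20% fell, against 9.62% and 15.4%. Relative to the control at 8 h 10% were higher and 10% lower, against 4.83% and 7.49%, and at 4 h relative to 2 h 40% and 10%, against 7.56% and 6.14%. The list medians were 0.09, -0.13, 0.02, -0.04, 0.14 and 0.14 on the log2 scale in that order, against 0.01, -0.02, -0.01, -0.02, -0.02 and 0.0 over all tested probe sets. Ccnd1 and Mycn were not called in any comparison, and Bcl2 and Hhip were under the filter. Ccnd2 and Jag2 answer to other pathways as well.

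Genes of the primary cilium, the organelle through which hedgehog signals pass, were in part higher after withdrawal and in part lower once GDNF had returned. Of 27 tested, 5 rose and 1 fell after withdrawal; 0 rose and 5 fell at 2 h, 0 rose and 11 fell at 4 h, and 0 rose and 10 fell at 8 h. At 8 h against the control 2 were higher and 2 lower, and at 4 h against 2 h 1 was higher and 2 lower. As shares, 18.5% rose and 3.7% fell after withdrawal, against 11.4% and 9.67% of all tested probe sets, 18.5% fell at 2 h, against 14.2%, 40.7% fell at 4 h, against 16%, and 37% fell at 8 h, against 15.4%. Relative to the control at 8 h 7.41% were higher and 7.41% lower, against 4.83% and 7.49%, and at 4 h relative to 2 h 3.7% and 7.41%, against 7.56% and 6.14%. The list medians were 0.15 after withdrawal and -0.08, -0.17 and -0.11 at 2, 4 and 8 h, against 0.01, -0.02, -0.01 and -0.02 over all. These 3 return comparisons and that of withdrawal against control share the withdrawal arrays, so the rise and the falls are not separate evidence. Without the 3 arrays lowest on the first component, 2 of the 27 rose and 0 fell after withdrawal, against 1173 and 1243 of all 15856 tested probe sets. The share of the list that rose was then about that of all probe sets. At 4 h 0 of the 27 rose and 7 fell, against 1988 and 2042 of all 15856.

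By name, the intraflagellar transport genes Ift172 and Dync2h1, a dynein heavy chain, rose after withdrawal (0.36 and 0.37 on the log2 scale, limma adjusted p = 0.00146 each). The kinesin subunit Kif3a rose by 0.30 (adjusted p = 0.008; 0.0826 without the 3 arrays lowest on the first component) and Bbs9 by 0.30 (0.022; up to 0.0803 with control replicate 1, or replicate 2 or 3 of withdrawal, left out, and 0.0817 without the 3 arrays lowest on the first component). At 4 h B9d1, a protein of the ciliary transition zone, fell by 0.31 (adjusted p = 0.000283), Ift140 by 0.36 (0.00529), Ift172 by 0.29 (0.00406) and Ift88 by 0.29 (0.008). At 8 h Bbs9, of the BBSome that carries membrane proteins into the cilium, fell by 0.61 (0.00014), Ift140 by 0.43 (0.00195), Dync2li1 by 0.39 (0.00255) and Ift172 by 0.37 (0.000836). At 2 h Inpp5e, a phosphatase of the ciliary membrane, fell by 0.37 (0.00223), and it was 0.41 higher at 4 h than at 2 h (0.00217).

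Bbs9 and B9d1 show the time course array by array. Bbs9 read 352.5, 375.1 and 392.0 after withdrawal, 346.4, 375.8 and 373.4 at 2 h, 317.5, 313.2 and 274.5 at 4 h, 274.9, 246.8 and 214.2 at 8 h and 283.6, 311.0 and 311.9 in the control. Withdrawal and 2 h overlapped, and all 8 h arrays were below both and below the control. B9d1 read 610.2, 627.4 and 662.2 after withdrawal, 559.6, 556.8 and 579.9 at 2 h, 514.3, 485.5 and 530.0 at 4 h, 548.7, 528.9 and 566.3 at 8 h and 647.2, 623.0 and 655.6 in the control. Its return arrays were below all withdrawal and control arrays, and it was 0.23 lower at 8 h than in the control (limma adjusted p = 0.00816).

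**Figure D5:**
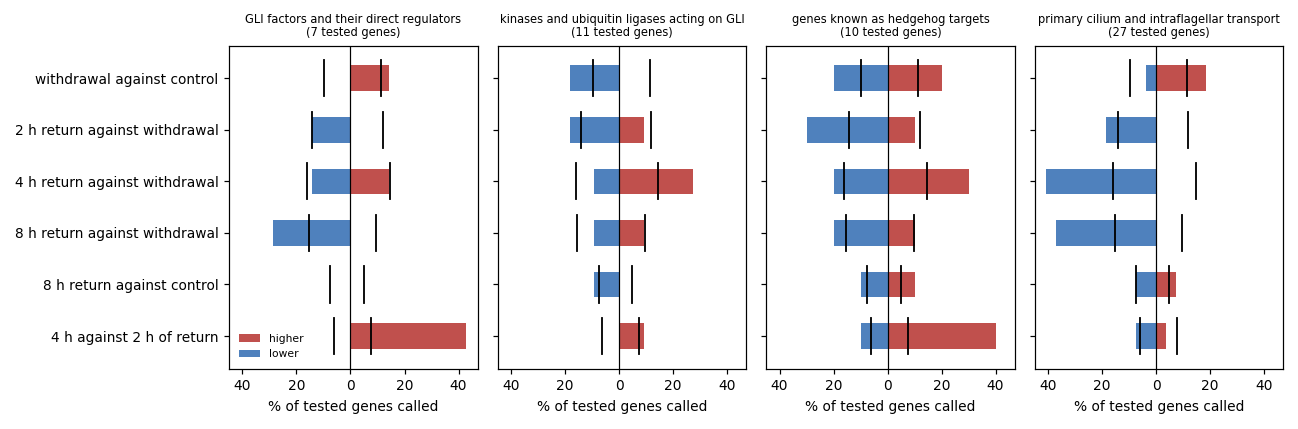
Share of the tested genes of 4 hedgehog-related lists called higher (red, right of 0) or lower (blue, left of 0) in each comparison, in percent, with 1 probe set a gene; black ticks mark the share of all 15856 tested probe sets called in the same direction. Cilium genes reach 40.7% lower at 4 h and 37% at 8 h of return against withdrawal, and the GLI list 42.9% higher at 4 h against 2 h (3 of 7 genes). Without the 3 arrays lowest on the first component, which is not drawn, 2 of these 7 were higher and 1 lower (1009 and 805 of all 15856).

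For the other members the closest genes over the 15 arrays, out of 8958, were less close than for Dhh. For Gli1 they were Cdr2 (Pearson r = 0.937), Nop58 (0.891), Gpbp1 (0.886), Fbxo45 (0.877) and Nudt11 (0.871); Cdr2 averaged 2331 ± 57.1 after withdrawal, 2388 ± 17 at 2 h, 2658 ± 107 at 4 h, 2419 ± 9.24 at 8 h and 2289 ± 219 in the control. For Gli2 they were Rbbp5 (0.903), Dtna (0.866), Cbfa2t2 (0.852), Rps6kc1 (0.846) and Slc35f6 (0.841), and Rbbp5, a subunit of histone H3 lysine methyltransferase complexes, had its lowest mean at 2 h (716.7 ± 29.4, against 846.3 ± 30.4 after withdrawal). For Smo 1389475_at they were Zfp11 (0.896), Cnppd1 (0.862), Tmem131 (0.858), Nap1l1 (0.854) and Polr2b (0.852), and for Smo 1370143_at Ppt2 (0.821), Tmem205 (0.817), Cul7 (0.805), Pla2g15 (0.778) and Usf2 (0.766). Ppt2, the closest of these to Smo 1370143_at, averaged 49.83 ± 2.68 after withdrawal and 48.19 ± 0.454 in the control.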

How the data were processed

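Gene expression was measured on 15 one-colour arrays of biotin-labelled cRNA from cultured rat spermatogonial stem cells, 3 independent cultures in each of 5 groups per the labels. The deposited values are linear intensities per probe set; GCRMA and Partek 6.3 are named in the submitters' processing notes without their order, and scanner files were not used here, so background correction and normalization are those of the authors. No genome build was named for the array. Groups follow the sample titles.

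Intensities were turned to log2. Probe sets reaching log2 4, an intensity of 16, on at least 3 arrays were tested (15856 of 31099). One limma fit (version 3.58.1, R 4.3.3) over all 15 arrays with an intensity trend gave each of the 6 comparisons and an F test over the 5 groups, with Benjamini-Hochberg adjustment over all tested probe sets and a threshold of 0.05. The fit was tested on simulated data. Probe set symbols came from the platform annotation: 20832 probe sets had 1 symbol, 436 had several and 9831 had none, and names were updated through RefSeq (20764 matched). Each gene was read through the brightest of its tested probe sets. Every member probe set is given; of each pathway or cilium list up to 4 called genes per comparison by smallest adjusted p, and of each marker list those called between withdrawal and control, up to 4, may be named, with the 10 genes most like Dhh and 5 most like each other member by Pearson r. Cell markers and neighbours of Dhh are further values. The members and lists were chosen with earlier results of these data known, so a list's counts are descriptions.

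Replicate numbers were not used to pair the cultures: deviations from group means of same-numbered arrays correlated between -0.14 and 0.39, not all above 0.1. Among replicate 1 arrays, r was 0.24 between control and withdrawal, 0.24 between control and 4 h return and 0.39 between withdrawal and 4 h return. These values do not show that same-numbered cultures shared nothing, and a shared replicate effect was not tested. The alternatives were no filter, a filter at log2 5, a floor at 16, quantile normalization, median centring, a fit with array weights, one without the intensity trend, one on the compared groups alone, a replicate block, and leaving out each array.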

Additional observations from a re-analysis of the deposited data

How the results depend on the processing

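Counts of called probe sets kept within 1.5 times the values of the report in all alternatives but one: with only the compared groups in the fit, 2166 instead of 3342 were called for withdrawal against control and 1241 instead of 1953 for 8 h against control. With single arrays left out the counts ranged from 2476 to 2986 for withdrawal against control, 2832 to 3764 for 2 h, 3837 to 4485 for 4 h and 3022 to 3591 for 8 h of return against withdrawal, 1312 to 1694 for 8 h against control and 1489 to 1986 for 4 h against 2 h. A replicate block, which was not part of the main fit, gave 3520 for withdrawal against control and 2047 for 8 h against control. The Dhh differences of -2.05 and -1.94 were the same with it.

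The Dhh differences from control ranged from -2.06 to -2.02 and from -2.02 to -1.90 with single arrays left out, and in all 96 alternative values Dhh moved by less than the largest of its group SDs, 0.13 on the log2 scale at 8 h of return. Among calls of the members, Gli1 at 4 h against 2 h was lost without the low-value filter (adjusted p = 0.103) and without the intensity trend (0.0515), Gli2 at 8 h against withdrawal without the filter (0.0794), with median centring (0.0511) and with only the compared groups (0.0851), and Smo 1389475_at at 8 h against withdrawal with only the compared groups (0.0762); its 2 h difference was called with a filter at log2 5 (0.0494) and with array weights (0.0287). Small differences that were not called changed sign when 1 array was left out. For Smo 1370143_at these were 2 h against withdrawal (range over single arrays -0.18 to 0.01), 8 h against withdrawal (-0.12 to 0.07) and 4 h against 2 h (-0.05 to 0.04), and for Smo 1389475_at 8 h against control (-0.18 to 0.05). Counting every probe set of the kinase and ligase list in place of 1 per gene gave 5, 5, 7 and 5 calls of 24 in the first 4 comparisons, against 2, 3, 4 and 2 genes of 11, and 2 in each of the last 2, against 1. For the GLI list it gave 2 after withdrawal and 4 at 2 h of 12, against 1 each of 7 genes. For the cilium list it gave 10 of 35 after withdrawal, against 6 of 27. Over all tested probe sets, 21.1%, 26.1%, 30.6%, 25%, 12.3% and 13.7% were called in either direction in the 6 comparisons in order. Of 74 differences of other listed genes examined, 45 stayed called in every alternative. Beyond the settings' own construction, the cause was not tested. Signals under 16, among them Sufu and Dhh without GDNF, are read only as low.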
